A study of Mus musculus with 39 samples.

Results

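The erythroid and haem synthesis genes are 32 mouse genes chosen by symbol: enzymes of haem synthesis, globins, proteins of the red cell membrane, blood group proteins, erythroid transcription factors and proteins that handle iron or porphyrins in the developing red cell. Of the 32, 31 had a row in the tables and Ahsp, which encodes a chaperone of alpha globin, had none. All 31 passed the filter on low values in spleen, where 19058 of 54735 genes were tested, and 20 passed it in liver, where 16155 genes were tested. Messenger RNA was sequenced from the spleens and livers of 4-week-old C57BL/6 animals, either wild type or with a knockout of Nr1i2, which encodes the nuclear receptor SXR/PXR that senses drugs and steroids. From around birth to that age they received the polychlorinated biphenyl PCB-153 at about 54 µg/kg/day, or the DMSO vehicle. Each of the 4 groups had 5 libraries per tissue, except for 4 wild-type vehicle spleens in which replicate 2 was absent, for 39 libraries in all. The labels do not name an animal or litter for any library, so the p-values measure the spread between these samples only.

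Red cells are made from committed precursors that divide, fill with haemoglobin and lose their nucleus. In young mice the spleen still holds many of these precursors, whereas the liver, the main site of red cell formation before birth, has by then largely stopped making red cells. Haem is built in a chain of enzymatic steps that starts with 5-aminolevulinate synthase. Alas2 encodes the form of this enzyme used by erythroid cells and Alas1 the form used by other tissues, liver above all. GATA1, TAL1, KLF1 and NFE2 are transcription factors that switch on globin, haem and membrane genes as the cells mature, and the receptor for transferrin, Tfrc, brings in the iron.

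Promoters of 4 members are shown because 3 of them hold a short word that GATA factors are known to bind and that of Urod does not, and because all 4 genes are used in the spleen comparisons that follow. Each stretch was taken from the RefSeq promoter table (GRCm38.p6), is written 5′ to 3′ on the strand of the gene, and stops before the gene start in GENCODE. Capitals mark the words AGATAA or TGATAA of GATA factors, CACCC of KLF factors and TGAGTCA or TGACTCA of NFE2 and related factors, on either strand.
Alas2 (chrX:150547167-150547374, plus strand): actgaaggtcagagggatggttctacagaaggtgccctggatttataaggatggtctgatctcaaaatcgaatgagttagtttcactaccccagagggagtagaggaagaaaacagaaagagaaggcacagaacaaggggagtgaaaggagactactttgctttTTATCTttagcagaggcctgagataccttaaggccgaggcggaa
Klf1 (chr8:84901732-84901927, plus strand): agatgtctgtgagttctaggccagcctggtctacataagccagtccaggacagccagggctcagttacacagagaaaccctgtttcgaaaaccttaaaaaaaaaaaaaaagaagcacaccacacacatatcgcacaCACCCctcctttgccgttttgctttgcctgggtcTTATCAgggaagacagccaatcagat
Trim10 (chr17:36869324-36869573, plus strand): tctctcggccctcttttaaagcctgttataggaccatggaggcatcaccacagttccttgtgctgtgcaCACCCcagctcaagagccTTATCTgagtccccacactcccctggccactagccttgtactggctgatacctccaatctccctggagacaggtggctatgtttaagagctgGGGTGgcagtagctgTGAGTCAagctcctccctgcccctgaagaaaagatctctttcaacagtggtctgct
Urod (chr4:116994414-116994663, minus strand): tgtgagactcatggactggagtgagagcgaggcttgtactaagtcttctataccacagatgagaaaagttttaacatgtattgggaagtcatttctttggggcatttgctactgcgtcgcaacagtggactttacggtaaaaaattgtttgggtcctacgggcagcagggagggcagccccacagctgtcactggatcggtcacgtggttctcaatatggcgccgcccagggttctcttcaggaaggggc

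The GATA word lies 86 bases before the RefSeq start in Alas2, 80 bases in Klf1 and 163 bases in Trim10, and the Urod stretch holds none of the words searched. The full Alas2 window holds the KLF word too, in the bases past the GENCODE start that are not shown. In the table, 25 members had 31 windows of the 250 bases before a start. A GATA word (AGATAA or TGATAA on either strand, read on the other strand as TTATCT or TTATCA) was in 48.4% of these windows, against 16.6% of the 32851 windows of all genes. The members that are largely restricted to red cells had it in 68.4% of 19 windows, and the broadly expressed members (Alad, Uros, Urod, Cpox, Ppox, Epb41 and Tfrc among those with a window) in 16.7% of 12. CACCC or its complement GGGTG was in 89.5% of the windows of the red cell genes, 33.3% of the broadly expressed ones and 52.0% of all. TGAGTCA or TGACTCA was in 6.45% of member windows and 4.46% of all windows. Several windows of 1 gene can overlap, and a word in a window is a match of letters and not a measured binding site.

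Libraries held 16.1 to 29.52 M reads in spleen and 15.23 to 28.65 M in liver, with reads of the globin genes making up 12.2% to 22.9% of a spleen library and 0.0344% to 0.148% of a liver library. The tissue labels held: Alb of hepatocytes stood at 1288324 or more normalised reads in every liver, and Cd79a of B cells at 3151 or more in every spleen. In spleen the counts of Nr1i2 ran against the genotype label, at 0.0 to 2.27 in the wild-type libraries and 42.9 to 62.8 in those labelled knockout. Every genotype direction in spleen thus rests on a label that the targeted gene goes against, and whether the label is wrong was not tested. In knockout livers Nr1i2 was still counted, at 449 to 1155 against 1019 to 1939 in wild type. In the group labelled knockout with PCB-153, spleen libraries 1 and 4 carried reads of pancreatic acinar genes (0.0961% and 0.767% of reads, against at most 0.007% in any other spleen), and spleen results are given with and without them. The 0.007% was library 5 of that group, which had a few such reads too (Cpa1 at 28.8 and Prss2 at 23.7) and stays in when libraries 1 and 4 are left out. Spleen library 4 of the labelled knockout vehicle group carried the most reads of hepatocyte genes, with Alb at 8921 normalised reads. Alb was also 2846 in wild-type PCB-153 spleen 1 and 1008 in wild-type vehicle spleen 1, and at most 386 in any other spleen.

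The levels of the members per length of transcript spanned a wider range in liver than in spleen only through members with few reads in liver, which were not tested there. In wild-type vehicle spleen the 4 globin genes were highest, led by Hbb-bs, a beta globin gene, at 59500 ± 9016 RPKM (SD, n = 4), the reads per kb of exon scaled to M reads of the library. Slc4a1, the anion exchanger band 3 of the red cell membrane, followed at 752 ± 135, and Alas2 at 673 ± 85. Dmtn, which encodes the actin-bundling protein dematin, was the lowest member in spleen at 28.9 ± 5.98. Neighbours in this order often lay within each other's spread, as Slc4a1 and Alas2 did. The Hba-a1 and Hba-a2 genes share 72.3% and 89.3% of their 50-base words with each other, and Hbb-bs and Hbb-bt 53.2% and 58.3%, so how reads were divided within each pair is uncertain.

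**Figure D1:**
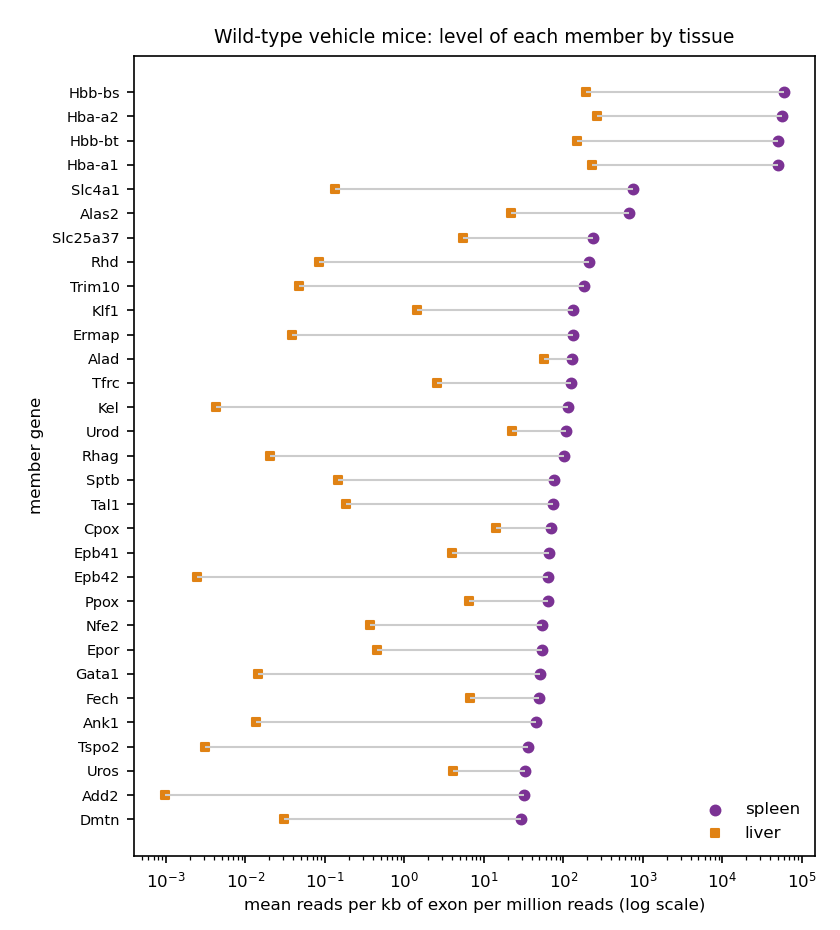
Mean level of each of the 31 members in wild-type vehicle spleens (circles, n = 4) and livers (squares, n = 5), in RPKM on a log axis. The broadly expressed enzymes such as Alad and Urod lie closer together in the 2 tissues, with Urod at 109 in spleen and 22.5 in liver. Red cell membrane genes such as Slc4a1 lie far apart, at 752 in spleen and 0.135 in liver.

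In liver the order was different. The globins were again highest, with Hba-a2 at 267, but next came Alad at 56.9 and Urod at 22.5, enzymes of haem synthesis that most tissues use, and Alas2 at 22.1 ± 6.63 (SD, n = 5). The 11 members that did not reach a mean of 10 normalised reads in liver were Ank1, Epb42, Add2, Dmtn, Rhag, Rhd, Kel, Ermap, Gata1, Trim10 and Tspo2, and they are not tested there. Add2, 1 of these, was the lowest at 0.00098, from a mean of 0.186 normalised reads in wild-type vehicle livers. Slc4a1, next after the globins in spleen, was last of the 20 members tested in liver at 0.135. From 267 to 0.135, the range of these 20 was no wider than that of the members in spleen, 59500 to 28.9. The tables of the 2 tissues were normalised separately, so levels set across tissues carry no test.

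In spleens labelled knockout, many erythroid genes rose with PCB-153. Of the 31 members, 19 rose and none fell (limma, adjusted p under 0.05 over all genes tested), while 2.78% of all genes tested rose. All 31 estimates were positive, as 48.7% of all genes were. Their median was 0.51 on the log2 scale (range 0.36 to 0.61) against -0.01 over all genes. The 19 were 3 haem enzymes (Urod, Ppox and Fech), 6 membrane genes (Slc4a1, Ank1, Sptb, Epb42, Add2 and Dmtn), the 4 blood group genes Rhag, Rhd, Kel and Ermap, 4 regulators (Klf1, Nfe2, Tal1 and Trim10), and Slc25a37 and Tspo2 of iron and porphyrin transport. For 6 members the lowest PCB-153 library exceeded the highest vehicle library, as was so for 1.82% of all genes.

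This count rests on few libraries. Without PCB-153 libraries 1 and 4 no member was called, with 0.131% of all genes called in either direction. An unadjusted p under 0.05 remained for 21 members (13.1% of all genes). All 31 estimates stayed positive, as 50.6% of all genes were, with a median of 0.44 (range 0.14 to 0.61). Many members varied together within groups, with a correlation r of 0.98 for Klf1 and Uros but -0.23 for Gata1 and Epb41. The signs of the estimates are therefore not independent, here and in the other spleen comparisons. Without the same 2 libraries edgeR called 0 members (0.084% of all genes) and DESeq2 called 4, Alas2, Urod, Fech and Epb41 (0.824% of all genes). The count was also 0 when any 1 of the labelled knockout libraries vehicle 3, vehicle 4, vehicle 5, PCB-153 1, PCB-153 3 or PCB-153 4 was left out, with the median between 0.47 and 0.5. The share of all genes called in those fits is not given here, so they do not tell a loss among the members from a general loss of calls. With all libraries, edgeR on the recovered reads called 20 members and DESeq2 26, with 2.81% and 6.45% of all genes called higher. The authors' deposited table likewise lists 26 members as higher at an adjusted p under 0.05.

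**Figure D2:**
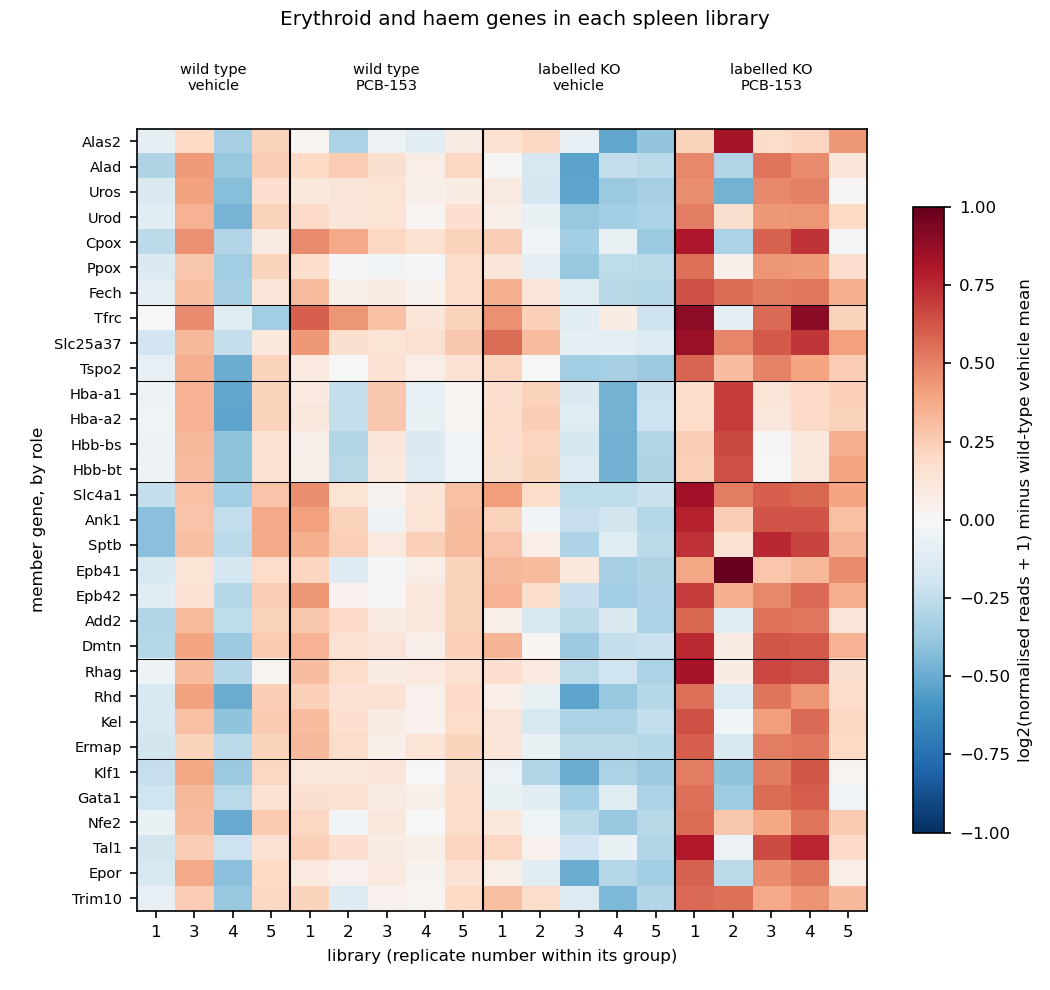
Log2 of normalised reads + 1 of each of the 31 members (rows, by role) in each of the 19 spleen libraries (columns), as the difference from the mean of the 4 wild-type vehicle libraries. The labelled knockout PCB-153 libraries 1, 3 and 4 are high in most rows, and library 2 is high for Alas2, the globins and Epb41 but at or below the reference for Klf1, Gata1 and Uros.

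**Figure D3:**
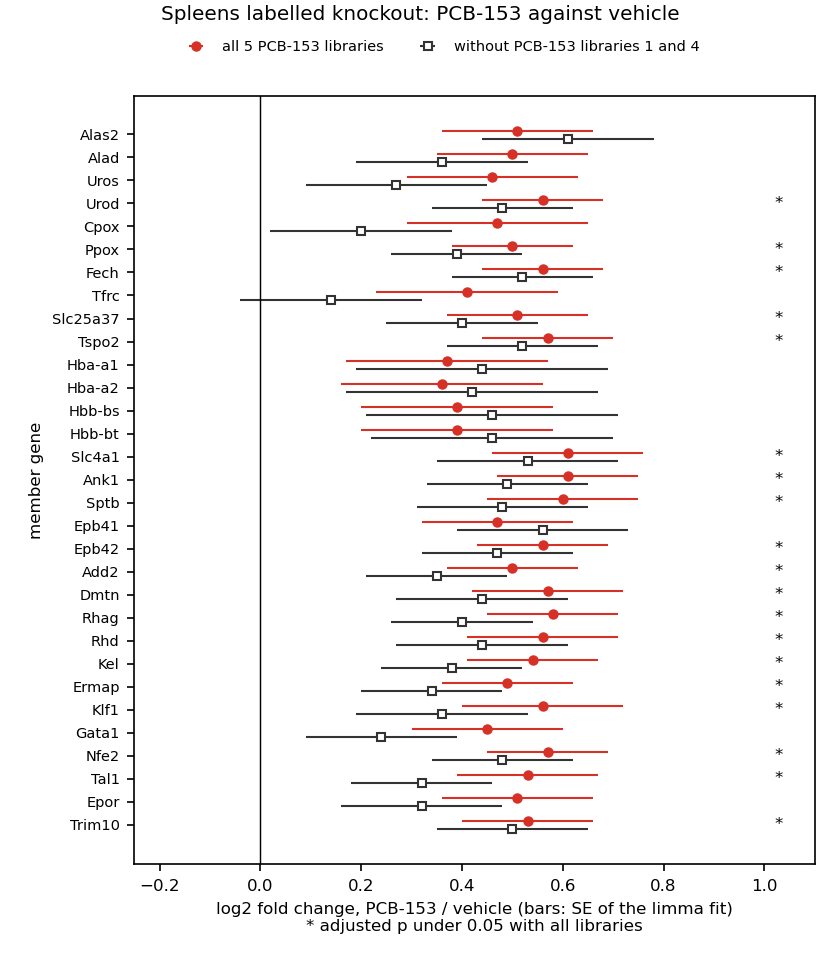
Log2 fold change of PCB-153 over vehicle in spleens labelled knockout, with the standard error of the limma fit, for all 5 PCB-153 libraries (filled circles) and without libraries 1 and 4 (open squares). Every estimate is above 0 in both fits, and the asterisks mark the 19 members called with all libraries.

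Among the haem enzymes, Alas2 opens the pathway in red cells (chrX:150547375-150570638, GRCm38, GENCODE M21). In the labelled knockout vehicle spleens 1 to 5 it stood at 34935, 36119, 29685, 21906 and 23789 normalised reads, and in the PCB-153 spleens 1 to 5 at 36882, 55868, 35694, 36451 and 42249. The groups overlapped only where PCB-153 library 3 lay below vehicle library 2, and library 2 stood apart at the top. The difference of 0.51 ± 0.15 (SE, log2) just missed the threshold (limma, adjusted p = 0.0504), and was 0.61 ± 0.17 without libraries 1 and 4 (adjusted p = 0.167). Alas2 shares 15.5% of its exon bases with Apex2 on the opposite strand, which differed by 0.47 ± 0.14 (limma, adjusted p = 0.0562). The part of shared reads was not tested. Alad, the next enzyme, read 4568, 4053, 3135, 3855 and 3767 in vehicle spleens 1 to 5 and 6347, 3695, 6586, 6293 and 4924 after PCB-153. Here library 2, the highest for Alas2, was the lowest of its group and lay inside the vehicle range (0.50 ± 0.15, adjusted p = 0.0583).

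Of the later enzymes 3 passed the threshold, and DESeq2 called all 7 haem enzymes. Urod, which decarboxylates uroporphyrinogen, rose by 0.56 ± 0.12 (limma, adjusted p = 0.0259), from 4182 to 5626 in vehicle spleens to 6085 to 7779 after PCB-153, with no overlap. Fech, the ferrochelatase that inserts iron into the ring as the last step, rose by 0.56 ± 0.12 (adjusted p = 0.0251), and Ppox, the oxidase before it, by 0.50 ± 0.12 (adjusted p = 0.0279). Ppox shares 17.5% of its exon bases with B4galt3 on the opposite strand, which was also higher (0.25 ± 0.06, adjusted p = 0.0295), and the sources used here do not give whether reads were counted by strand. Uros and Cpox, which act in the middle of the pathway, gave 0.46 ± 0.17 and 0.47 ± 0.18 and were not called (adjusted p = 0.097 and adjusted p = 0.127, limma).

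None of the 4 globin genes was called, and their median estimate was 0.38 (range 0.36 to 0.39). Without libraries 1 and 4 it was 0.45, beside 0.39 for the haem enzymes, 0.48 for the membrane genes, 0.39 for the blood group genes, 0.34 for the regulators and 0.40 for the iron and porphyrin genes. Hbb-bs read 993792, 1024651, 782837, 633531 and 722185 in vehicle spleens 1 to 5 and 1047657, 1399527, 888376, 956566 and 1138738 after PCB-153. Library 2 was the highest of all 19 spleens, while libraries 3 and 4 lay below the highest vehicle library. The difference was 0.39 ± 0.19 (limma, adjusted p = 0.221). With each library scaled to its reads outside the globin and acinar genes, a setting chosen after seeing the data, 19 members were called and the median over members was 0.43. The share of all genes called with that scaling is not given here.

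Of the 7 membrane and skeleton genes 6 rose, and their median estimate was 0.57. Slc4a1 read 94710, 80312, 59342, 59518 and 61173 in vehicle spleens 1 to 5 and 127067, 101170, 107302, 105707 and 93034 after PCB-153. A single vehicle library, number 1, reached into the PCB-153 range, and the rise was 0.61 ± 0.15 (limma, adjusted p = 0.0302). Ank1, the ankyrin that ties band 3 to the spectrin skeleton, rose by 0.61 ± 0.14 (adjusted p = 0.0279) without overlap of the groups. Epb42, encoding protein 4.2, rose by 0.56 ± 0.13 (adjusted p = 0.0263), also without overlap. Sptb, the beta spectrin of red cells, rose by 0.60, Dmtn by 0.57 and Add2, a beta adducin, by 0.50. Epb41, which joins spectrin to actin in many cell types, was the member not called, at 0.47 ± 0.15 (adjusted p = 0.0588).

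All 4 blood group genes rose. Rhag, the Rh-associated glycoprotein that brings the Rh complex to the membrane, read 5132, 4887, 3800, 3995 and 3682 in vehicle spleens 1 to 5 and 8094, 4813, 7273, 7147 and 5114 after PCB-153. Libraries 1, 3 and 4 stood well above every vehicle spleen, whereas libraries 2 and 5 lay inside the vehicle range (0.58 ± 0.13, limma, adjusted p = 0.0272). Without libraries 1 and 4 the Rhag difference was 0.40 ± 0.14 (adjusted p = 0.219). Rhd, Kel and Ermap rose by 0.56, 0.54 and 0.49.

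Among the regulators, Klf1 drives globin and membrane genes (chr8:84901928-84905291, GRCm38, GENCODE M21). It read 3793, 3227, 2794, 3166 and 3063 in vehicle spleens 1 to 5 and 5621, 2993, 5664, 6069 and 4022 after PCB-153. Libraries 1, 3 and 4 were high, library 5 was just above the vehicle range and library 2 was inside it. The rise was 0.56 ± 0.16 (limma, adjusted p = 0.0448), and 0.36 ± 0.17 without libraries 1 and 4 (adjusted p = 0.373). Nfe2, the larger subunit of a factor of erythroid cells and megakaryocytes, rose by 0.57 ± 0.12 (adjusted p = 0.0259) without overlap, from 2387 to 3343 in vehicle spleens to 3716 to 4578 after PCB-153. Trim10, a protein needed in late red cell maturation, rose by 0.53 and Tal1 by 0.53. Gata1 (0.45 ± 0.15, adjusted p = 0.0734) and the erythropoietin receptor gene Epor (0.51 ± 0.15, adjusted p = 0.0519) were not called.

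Of the iron and porphyrin genes, Slc25a37, the mitoferrin that takes iron into mitochondria, rose by 0.51 ± 0.14 (limma, adjusted p = 0.0354). Tspo2, an erythroid relative of the mitochondrial translocator protein, rose by 0.57 ± 0.13 (adjusted p = 0.0262) without overlap of the groups. Tfrc, the transferrin receptor, read 20508, 17599, 13877, 15718 and 12928 in vehicle spleens 1 to 5 and 27810, 14031, 22053, 27961 and 17515 after PCB-153. Libraries 1 and 4, those with the most pancreatic reads, were the highest, and the difference of 0.41 ± 0.18 (adjusted p = 0.163) was 0.14 ± 0.18 without them.

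Other genes of the same pathways were also counted. Of 20 further haem pathway genes 6 rose and none fell (median 0.38), among them the haem-regulated kinase Eif2ak1 (0.44 ± 0.10, limma, adjusted p = 0.0272), the biliverdin reductase Blvra (0.40) and the mitochondrial carrier Slc25a39 (0.44). Alas1 stood at 425 ± 13.6 after vehicle and 408 ± 64.6 after PCB-153 (SD, n = 5 each) and differed by -0.07 ± 0.09 (adjusted p = 0.673). Of 41 further erythroid genes 17 rose and none fell (median 0.48), including the globin relative Hbq1b (0.61), Isg20 (0.50), Fhdc1 (0.55) and the adhesion protein Icam4 (0.65). Over all genes tested 2.78% rose in this comparison. Neither list had a called gene without libraries 1 and 4, where 0.131% of all genes were called in either direction.

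Markers of other cells moved beside the erythroid genes in the same comparison, and their part in the result was not tested. Of 8 B cell markers 6 fell (median -0.57), with a summed level of 36540 to 47570 normalised reads in vehicle spleens and 21690 to 36550 after PCB-153. The lowest sums were in PCB-153 libraries 1, 3 and 4, at 21690, 27000 and 22220. Of 22 cell division genes 7 rose (median 0.50), with sums of 84530 to 109300 after vehicle and 157200, 82770, 150900, 163200 and 108500 in PCB-153 libraries 1 to 5. The same 3 libraries were thus highest for cell division and for Klf1, and library 2 was the lowest of the 5 for both. Of 18 neutrophil and myeloid precursor genes 9 rose (median 0.65), summing to 4738 to 6537 and 5747 to 11150. Over all genes tested 2.78% rose, and 24.1% had an unadjusted p under 0.05 in either direction (limma). Genes called lower are a part of that 24.1%, and their own share of all genes is not given here. Without libraries 1 and 4 the called genes numbered 0 for B cells (median -0.32), 0 for cell division (median 0.26) and 7 for neutrophils (median 0.78). In that fit 0.131% of all genes were called in either direction. No gene of these 3 lists was at 0 in a labelled knockout spleen. Megakaryocyte, macrophage and T cell lists had no called gene, with medians of -0.11, -0.05 and -0.19. The acinar genes summed to 618.2 to 751.2 after vehicle and 705.9 to 162900 after PCB-153, with 3 to 10 of 20 at 0 in every labelled knockout library but PCB-153 1, 4 and 5. In bulk tissue, more cells of a type and more RNA per cell cannot be told apart.

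Within the labelled knockout PCB-153 spleens the members were ordered differently across libraries. Library 2 was the highest of all 19 spleens for 6 members (Alas2, the 4 globins and Epb41) and the lowest of its own group for 19, among them Klf1, Gata1, Tal1, Epor, Tfrc, Rhag, Kel and 5 haem enzymes. Library 5 was the lowest of the group for the other 6 (Fech, Slc4a1, Nfe2, Trim10, Slc25a37 and Tspo2). Library 1 was the highest of all spleens for 19 members, many of them among those for which library 2 was lowest. For every 1000 reads of Alas2 there were 53.6 of Klf1 in library 2, the lowest of the 19 spleens, against 152, 159 and 166 in libraries 1, 3 and 4 and 95.2 in library 5. In the other 3 groups this ratio ran from 89.3 to 169. Alas2 kept a nearly fixed relation to Hbb-bs, at 31.4 to 40.2 reads per 1000 in all 19 spleens.

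**Figure D4:**
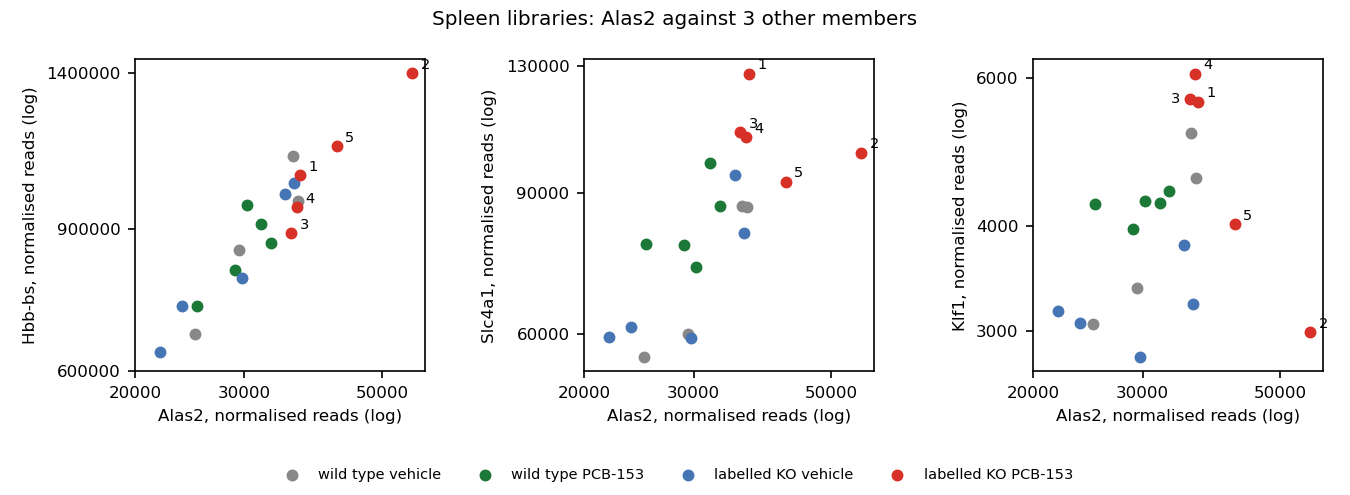
Normalised reads of Hbb-bs, Slc4a1 and Klf1 against Alas2 in the 19 spleen libraries, on log axes, with points coloured by group and the labelled knockout PCB-153 libraries numbered. Hbb-bs follows Alas2 through all groups, while Klf1 in PCB-153 library 2 is 2993 at the highest Alas2 level of 55868.

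The relation of each member to Alas2 was graded when taken between libraries of all groups with the group means removed. Over 19 spleens and 30 relations computed, Alas2 went with Epb41 (r = 0.97, rho = 0.97), Hbb-bt (0.95 and 0.95), Hbb-bs (0.94 and 0.93), Hba-a2 (0.92 and 0.94) and Hba-a1 (0.91 and 0.94), each with a permutation p of 1e-05 for both, the smallest that the 100000 permutations can give. Trim10 followed (r = 0.83, permutation p = 1e-04, and rho = 0.83, permutation p = 0.00057). Without the 2 spleens farthest from the median of Alas2, r was 0.95 for Epb41, 0.93 for Hbb-bt and 0.86 for Trim10. Fech followed at r = 0.70 (permutation p = 0.00607) and rho = 0.73 (permutation p = 0.00493), and Slc4a1, Epb42, Tspo2, Nfe2, Slc25a37 and Urod lay between r = 0.42 and r = 0.57. The lowest values, with Cpox (r = -0.08) among them, were those of Klf1 (r = -0.08, permutation p = 0.78, and rho = 0.11, permutation p = 0.681), Gata1 (r = -0.17, permutation p = 0.576) and Tfrc (r = -0.11, permutation p = 0.692). The low values rest in part on 1 library: without PCB-153 library 2 all 30 values of r were between 0.21 and 0.96, with 0.38 for Klf1, 0.25 for Gata1, 0.21 for Tfrc, 0.66 for Urod and 0.61 for Ppox. All genes of a library share its depth and its size factor. The spread of members within groups was 0.20 to 0.33 on the log2 scale in spleen, where the median gene had 0.20.

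No member was called between the genotypes as labelled after PCB-153 in spleen (limma, 0.157% of all genes called in either direction), and 13 had an unadjusted p under 0.05, as 10.9% of all genes did. EdgeR and DESeq2 also called 0 members, with 0.341% and 1.2% of all genes called. All 31 estimates were higher in the libraries labelled knockout, as 48.8% of all genes were, with a median of 0.28. For 6 members the groups did not overlap (1.25% of all genes). Alas2 stood at 31945, 25152, 30258, 28953 and 33129 in wild-type PCB-153 spleens 1 to 5, each below all 5 labelled knockout PCB-153 spleens given above (0.46 ± 0.15, adjusted p = 0.235). Fech differed by 0.38 ± 0.12 (adjusted p = 0.214) and Trim10 by 0.38 ± 0.13 (adjusted p = 0.259). Without libraries 1 and 4, 25 estimates were higher (48.3% of all genes were) and 6 lower, with a median of 0.17. In that setting limma called 0 members (0.436% of all genes, 4 members and 15.5% of all genes with an unadjusted p under 0.05), and DESeq2 called Alas2 alone (2.29% of all genes). This comparison and the one with vehicle share the labelled knockout PCB-153 libraries.

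The remaining spleen comparisons called no member with limma, edgeR or DESeq2. In wild-type spleens PCB-153 against vehicle gave a median of 0.14 with 28 estimates higher (52.3% of all genes were). No member had an unadjusted p under 0.05, where 3.81% of all genes did (0% of all genes called with limma or edgeR, 0.0157% with DESeq2). Alas2 read 29425, 35916, 24971 and 36615 in the 4 wild-type vehicle spleens, and differed by -0.08 ± 0.16 (limma, adjusted p = 0.958). The members with the smallest p there were Tfrc at 0.33, Slc25a37 at 0.23 and Sptb at 0.25 (adjusted p = 0.943 each, limma). Between genotypes as labelled under vehicle the median was -0.11 with 28 estimates lower in the labelled knockout (48.1% of all genes were). Again no member had an unadjusted p under 0.05, where 10.5% of all genes did (0.0315% of all genes called with limma and edgeR, 0.205% with DESeq2). Klf1 at -0.31, Urod at -0.21 and Rhd at -0.24 had the smallest p (adjusted p = 0.53 to 0.595, limma). The exposure effect was larger in the labelled knockout for all 31 members as estimated (49.1% of all genes), with a median difference of 0.40. The interaction passed for none (0% of all genes called with limma and edgeR, 0.178% with DESeq2). An unadjusted p under 0.05 was found for 9 members and 9.85% of all genes. Without libraries 1 and 4, 29 estimates were higher (51.1% of all genes were) and 2 lower (Tfrc and Cpox), with a median of 0.28. In that fit 2 members had an unadjusted p under 0.05, where 10.2% of all genes did. With all libraries Alas2 gave the smallest p, with 0.58 ± 0.22 (limma, adjusted p = 0.442), followed by Nfe2 and Tspo2 at 0.48 each.

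In liver the member that stood out was Alas2, which was lower in the knockout. After PCB-153 it read 973, 1314, 918, 985 and 574 normalised reads in wild-type livers 1 to 5 and 392, 289, 297, 333 and 464 in knockout livers 1 to 5. Every knockout liver lay below every wild-type liver, and the difference was -1.40 ± 0.23 on the log2 scale (limma, adjusted p = 0.00166), a fold of 0.38. It was the only member that fell among the 20 tested, with 0.854% of all genes lower, and edgeR (0.792% lower) and DESeq2 (1.29% lower) called it too. Leaving out any 1 liver library gave -1.57 to -1.27, with the adjusted p between 0.000367 and 0.00857. The authors' deposited table also lists 1 member as lower in this comparison.

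**Figure D5:**
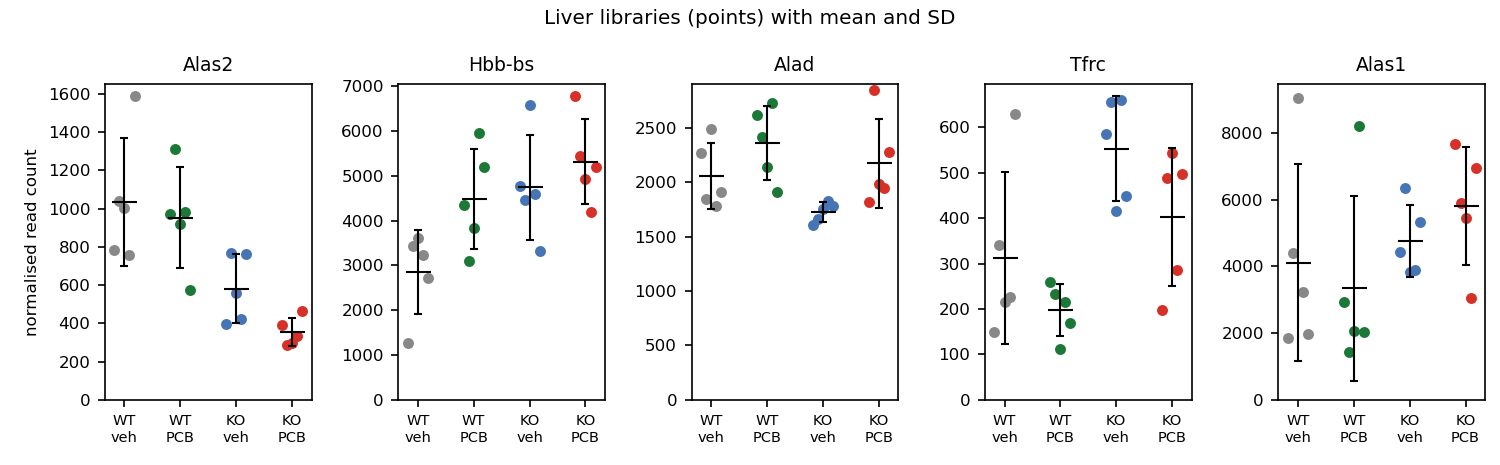
Normalised read counts of Alas2, Hbb-bs, Alad, Tfrc and, for comparison, Alas1 in the 20 livers (points), with the mean and SD of each group of 5 libraries. Alas2 falls to 289 to 464 in PCB-153 knockout livers from 574 to 1314 in PCB-153 wild-type livers, while Hbb-bs overlaps between these groups.

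Under vehicle Alas2 was 783, 1040, 1002, 758 and 1588 in wild-type livers 1 to 5 and 395, 770, 558, 425 and 761 in knockout livers 1 to 5. The groups overlapped narrowly, through 2 knockout livers just above the lowest wild-type liver. The difference of -0.83 ± 0.23 was not called with limma (adjusted p = 0.119) and was with DESeq2 (adjusted p = 0.0338), which called 0.78% of all genes lower. In knockout livers PCB-153 against vehicle gave -0.68 ± 0.23 (limma, adjusted p = 0.406) and in wild-type livers -0.11 ± 0.23 (adjusted p = 0.901). The interaction was -0.56 ± 0.33 (adjusted p = 1.0), so a difference between genotypes in the effect of PCB-153 was not shown.

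Alas2 and globin reads parted in liver. There were 52.9 to 89.2 reads of Alas2 per 1000 of Hbb-bs in PCB-153 knockout livers and 82.7 to 229 in vehicle knockout livers. Wild-type livers held 110 to 424 after PCB-153 and 234 to 615 under vehicle, against at most 40.2 in any spleen. Across 20 livers with group means removed, Alas2 and Hbb-bs gave r = -0.09 (permutation p = 0.735) and rho = -0.09 (permutation p = 0.726), among 19 relations computed, and r = -0.04 without the 2 livers farthest from the median of Alas2. The highest r in liver was with Urod (r = 0.55, permutation p = 0.02, and rho = 0.51, permutation p = 0.0284). Neither passed after Benjamini-Hochberg adjustment of the permutation p over the 19 relations (adjusted p = 0.38 and adjusted p = 0.426).

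The Alas2 gene overlaps Apex2, which encodes a DNA repair endonuclease on the opposite strand, over 15.5% of its exon bases, and reads there cannot be told apart if the counting ignored strand. Apex2 moved with it, at 392 ± 105 in wild-type and 196 ± 24.5 in knockout livers after PCB-153 (SD, n = 5 each; -0.96 ± 0.17, limma, adjusted p = 0.00387). Alas2 had 2.2 to 2.71 times the reads of Apex2 in PCB-153 wild-type livers and 1.21 to 2.57 times in PCB-153 knockout livers, and 6.54 to 8.37 times in spleens. The part of shared reads in the Alas2 difference was not tested.

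Epb41 was the 1 liver member that rose, and narrowly. After PCB-153 it read 940, 1118, 1014, 1057 and 1056 in wild-type livers 1 to 5 and 1437, 1222, 1395, 1370 and 1399 in knockout livers 1 to 5, without overlap. The difference was 0.40 ± 0.10 (limma, adjusted p = 0.0495), with 0.594% of all genes higher. EdgeR and DESeq2 made the same call, with 0.569% and 1.06% of all genes higher. The call was lost when any 1 of 17 of the 20 liver libraries was left out, and kept without wild-type vehicle 3, knockout vehicle 3 or knockout PCB-153 2. Besides Epb41, no member was wholly higher in the knockout livers (1.21% of all genes were), and besides Alas2, Slc25a37 was wholly lower without being called (-0.36 ± 0.17, adjusted p = 0.437), where 1.38% of all genes were.

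Tfrc read 259, 233, 113, 215 and 170 in wild-type and 198, 488, 544, 285 and 497 in knockout livers 1 to 5 after PCB-153 (0.98 ± 0.32, limma, adjusted p = 0.195). Under vehicle it read 150, 341, 215, 226 and 629 in wild-type and 585, 657, 415, 660 and 449 in knockout livers (0.98 ± 0.32, adjusted p = 0.206). Wild-type vehicle liver 5 lay among the knockouts, and without it the difference was 1.28 (adjusted p = 0.0471), the only member then called. Alas1, the form of the enzyme that hepatocytes use, was 3347 ± 2775 in wild-type and 5802 ± 1769 in knockout livers after PCB-153 (SD, n = 5 each; 1.03 ± 0.41, adjusted p = 0.335), with ranges that overlapped.

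No other haem enzyme was called in liver. Alad read 2619, 2415, 2137, 2732 and 1913 in wild-type and 1816, 2844, 1983, 1947 and 2280 in knockout livers after PCB-153, which overlapped (-0.13 ± 0.12, limma, adjusted p = 0.805). Cpox read 1315 to 2316 in wild-type vehicle, 1151 to 1526 in wild-type PCB-153, 1553 to 3064 in knockout vehicle and 1432 to 2190 in knockout PCB-153 livers. It differed by -0.42 ± 0.17 with PCB-153 in wild type (adjusted p = 0.717) and by 0.36 ± 0.17 between genotypes after PCB-153 (adjusted p = 0.463). In these same comparisons Fech gave -0.29 and 0.29, and Uros gave 0.17 and -0.30. None of the 20 further haem pathway genes and none of 26 tested further erythroid genes was called in any liver comparison.

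Red cell genes were low in liver and varied widely. Slc4a1 read 3.52 to 18.1 in wild-type vehicle, 5.59 to 11.4 in wild-type PCB-153, 7.58 to 20.3 in knockout vehicle and 9.98 to 32.7 in knockout PCB-153 livers, and the difference between genotypes after PCB-153 was 1.08 ± 0.39 (limma, adjusted p = 0.258). Klf1 read 37.5 to 91.0 over all livers, and Rhag at most 2.59. The globins were lowest in wild-type vehicle livers, where Hbb-bs read 1273, 3431, 3622, 3235 and 2715, against 4340, 3096, 3841, 5946 and 5206 after PCB-153 (0.70 ± 0.24, adjusted p = 0.717). In vehicle knockout livers Hbb-bs was 3331 to 6578 (0.79 ± 0.24 against wild-type vehicle, adjusted p = 0.162), with wild-type vehicle liver 1 the lowest of all 20.

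No member was called in the remaining liver comparisons. PCB-153 against vehicle in wild type left 8 members with an unadjusted p under 0.05, as it did 6.69% of all genes (0% of all genes called with limma and edgeR, 0.00619% with DESeq2), and the 3 with the smallest p were Hba-a1, Hba-a2 and Hbb-bs at 0.64, 0.63 and 0.70 (limma, adjusted p = 0.717 each). In knockout 2 members and 9.85% of all genes had an unadjusted p under 0.05 (0% called with limma and edgeR, 0.39% with DESeq2), led by Alas2 and then Alad at 0.32 ± 0.12, and Epor had the next smallest p. Genotype under vehicle left 8 members and 12.6% of all genes (0.607% called with limma and edgeR), with Hbb-bs and Hbb-bt (0.81) after Alas2. The interaction left none (0% called with each tool), and the smallest p were those of Slc4a1 (0.99 ± 0.55), Alas2 and Klf1. Of these comparisons, edgeR called no member and DESeq2 called Alas2 between genotypes under vehicle.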

How the data were processed

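Liver and spleen RNA was sequenced on a HiSeq4000 from Illumina TruSeq libraries, each tissue's set in 1 lane, per the labels' protocols, which name 2 kit versions, 1 of them stranded. Tools named in the submitters' processing notes are STAR 2.6.0, featureCounts, DESeq2 (its version written as 3.8) and FastQC, with mm10 as the build. Their options, annotation and strand setting are not given in sources used here. The authors deposited 1 signal table per tissue, with reads divided by a size factor of each library. Multiplied by that factor, 100% of values came out whole within 0.05 reads. In 4 libraries (wild-type PCB-153 liver 3, knockout PCB-153 livers 1 and 3, and labelled knockout vehicle spleen 3) the factor is near 1, and there recovered reads cannot be told apart from rounded values. The authors also deposited DESeq2 tables with log2 fold changes, p-values and a score (the Wald statistic), per the file headers.

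Testing used limma 3.58.1 (R 4.3.3, with a mean-variance trend) on log2(value + 1) of the genes with a mean of at least 10, in 1 fit per tissue, two-sided, with Benjamini-Hochberg adjustment over all genes tested, and called at an adjusted p under 0.05. Fold changes are on that scale and understate low genes. The fit was tested on simulated data. Alternatives were pseudocounts of 0.5 and 5, no filter or a mean of 50, quantile normalisation, 2 groups only, a replicate block, each library left out, spleen PCB-153 knockout libraries 1 and 4 left out, and edgeR 4.0.16 and DESeq2 1.42.0 on recovered reads. Correlations used deviations from group means and permutations within groups.

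The members, lists and tests were chosen with earlier results of these data known. In each comparison the text names at most 8 of the called members, by p (3 members where fewer than 3 were called), Alas2, Alad, Hbb-bs, Slc4a1, Klf1, Tfrc and Rhag per library, and from the other lists up to 4 called genes with Alas1, some of which are not reported here. Apex2, B4galt3 and members named outside this rule were chosen after their values were seen.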

Additional observations from a re-analysis of the deposited data

Results flagged for a closer look

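In 6 cases 1 library lay apart from the other libraries of its group by Dixon's criterion, which chance meets in about 1 group in 20. The criterion was applied to 124 groups of member values in spleen and 80 in liver. In spleen, labelled knockout PCB-153 library 2 was set apart as the highest for Hba-a1 (1250161 normalised reads), Hba-a2 (1174030) and Epb41 (40777). In liver, wild-type vehicle library 3 was set apart as the lowest for Epb41 (950), wild-type vehicle library 4 as the highest for Klf1 (55.8) and wild-type PCB-153 library 2 as the highest for Slc25a37 (840).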

How the results depend on the processing

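The count of 19 members higher after PCB-153 in spleens labelled knockout was 4 with no filter on low values, 10 with quantile normalisation and 5 in a fit of only the 2 compared groups. Without PCB-153 libraries 1 and 4 it was 0 with limma, and 0 with edgeR and 4 with DESeq2, settings chosen after seeing the data. It was 0 without libraries 1, 4 and 5, also chosen after seeing the data, and leaving out 1 spleen library at a time gave 0 to 25. Of these settings, only the fits that left out just libraries 1 and 4 have their share of all genes called given above. For the others, a loss among the members cannot be told apart from a general loss of calls. Between genotypes after PCB-153 in spleen, DESeq2 without libraries 1 and 4 called 1 member, where 0 were called otherwise. In liver, DESeq2 called 1 member between genotypes under vehicle, and leaving out 1 library gave 0 to 1. Between genotypes after PCB-153 in liver the count of 2 was 1 with no filter and 1 to 2 with 1 library left out. The cause of these changes was not tested. All other settings left the counts within 1.5 times, 284 of 318 in all. Most of these 284 set a count of 0 beside a count of 0, in comparisons where no member was called. They say little about the counts of 19 and 2. Whether shared replicate numbers pair the libraries could not be settled. Correlations of same-numbered libraries ran from -0.016 to 0.17 in the spleen comparison with 19 calls. They ran from 0.039 to 0.27 between genotypes in vehicle livers, and from -0.38 to 0.4 between PCB-153 and vehicle in knockout livers. With the replicate number as a block the count of 19 was 18, the liver count after PCB-153 was 2, and all other counts were 0.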
